A study of Mus musculus with 2 samples.

Results

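The subunits of the mitochondrial respiratory chain and the ATP synthase that are encoded in the nucleus were examined in the air pouch membrane. Genes were taken by symbol, from probe sets assigned to 1 gene only: Ndufa, Ndufb, Ndufc, Ndufs and Ndufv genes (complex I), Sdha to Sdhd (complex II), Uqcr genes (complex III), Cox4 to Cox8 genes (complex IV) and Atp5 genes (complex V, the ATP synthase), without assembly factors. A probe set is the set of short probes on the array that reads out one transcript. The rule gave 80 of 18193 genes, with 161 probe sets. The membrane lines a cavity raised with air under the skin of the back and serves as a stand-in for synovium. The MSU group were female Balb/C mice, 6-8 weeks old, whose pouches received 2 mg monosodium urate (MSU) crystals in 1 ml PBS. The control group were female mice of the same strain and age, whose pouches received 1 ml PBS alone. Membranes were taken 9 h later, and the RNA of 3 mice was pooled per group and hybridized to 1 array. Each gene therefore had 1 value per group, so no replicate error was known, no test was possible and all comparisons below describe these pools.

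Complexes I to IV of the inner mitochondrial membrane pass electrons from NADH and succinate to oxygen, and complexes I, III and IV pump protons as they do so. The ATP synthase lets the protons flow back and makes ATP. Muscle and brown fat are rich in these complexes, and several cytochrome c oxidase subunits exist in a ubiquitous form and in a form used by heart and skeletal muscle, whereas neutrophils live largely on glycolysis.

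Signals were linear intensities, scaled so that both arrays had a trimmed mean of 150. The floor, the signal at the rank equal to the number of probe sets counted as detected in the paper, was 74.1 on the MSU array and 64.6 on the control array. A gene above both floors was given a fold (74 subunit genes). A gene above the floor on 1 array alone was given a bound against the other array's floor where its signal was above that floor too (Cox7a1 and Cox4i2). Genes that met neither condition had no ratio, and Ndufb4, Cox6b2, Cox7b2 and Cox7c lay below both floors. The 76 subunit genes given either value are called measured. Of all 18193 genes, 11155 were measured and 10045 had a fold, with a median log2 ratio of MSU over control of -0.05. The ratio of 3' to 5' Gapdh control signals was 0.741 on the MSU array and 0.745 on the control array. The 18 hybridization spike-in controls were all brighter on the MSU array, and scaling on them would lower every log2 ratio by 0.46, so that ratios between 0 and this size turn below 0.

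Most subunit genes had a lower signal in the MSU pool. Of the 74 with a fold, 68 had a log2 ratio below 0 (91.9%), against 55% of all genes. At least 1.5-fold lower were 36 of the 76 measured subunit genes (47.4%), against 14.4% of all measured genes, and at least 2-fold lower were 17 (22.4%), against 4.29%. None was at least 1.5-fold or 2-fold higher, sizes that 8.65% and 3.7% of all measured genes reached. The median log2 ratio of the subunits was -0.57, or 1.49-fold lower in the MSU pool, with quartiles of -0.93 and -0.27 and an SD between genes of 0.46. Their signals summed to 68249 in the MSU pool and 93436 in the control pool. Genes of a like signal did not share this: among all 3771 genes with mean signals between 324 and 2340, where 58 of the subunits lay, the median log2 ratio was -0.05 and 14.1% were at least 1.5-fold lower. In a bulk sample, fewer cells of a type and less RNA per cell cannot be told apart.

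**Figure D1:**
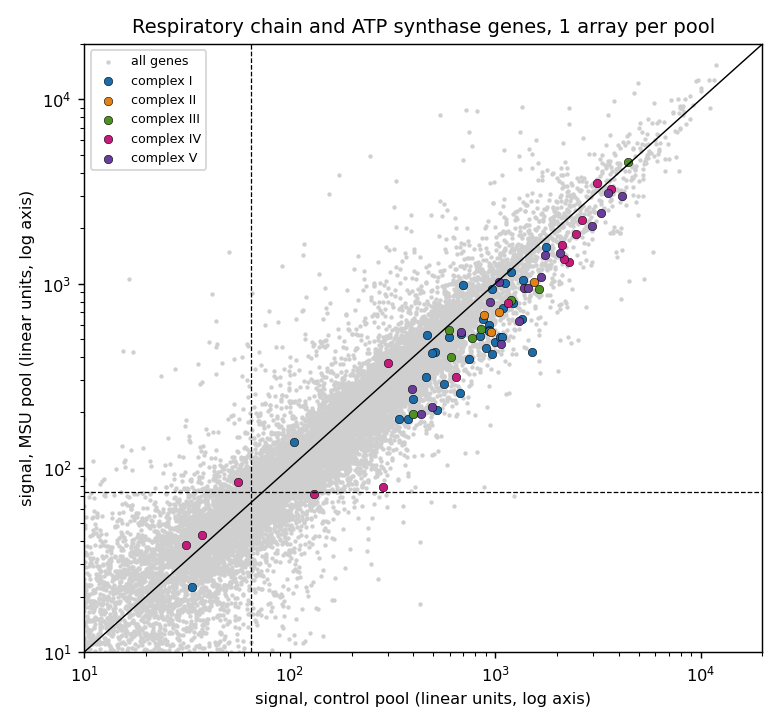
Signal of each gene in the MSU pool (vertical, linear units on a log axis) against the control pool (horizontal, log axis), all genes in grey and subunit genes coloured by complex, with the line of equal signal and the floors (dashed, 74.1 for MSU and 64.6 for control). Of the 74 subunit genes with a fold, 68 lie below the line of equal signal.

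In complex I, which takes electrons from NADH, 34 of 35 genes were measured. Of these, 19 (55.9%) were at least 1.5-fold lower in the MSU pool and 10 (29.4%) at least 2-fold lower. Among all measured genes these shares were 14.4% and 4.29%. The median log2 ratio of the complex was -0.67. The 6 core subunits measured, which carry the flavin, the iron-sulfur clusters or the ubiquinone site, spread widely (median -0.89). Ndufs8, an iron-sulfur subunit, had the lowest ratio of the complex, with a signal of 427 in the MSU pool and 1520 in the control pool, 3.56-fold lower. Ndufs3, a core subunit of the peripheral arm, had 253 in the MSU pool and 672 in the control pool (2.65-fold lower). Ndufv2, which holds an iron-sulfur cluster near the entry of electrons, had 513 in the MSU pool and 1078 in the control pool (2.10-fold lower). Core subunits did not all differ to this extent between the pools. Ndufv1, which binds NADH and the flavin, had 520 in the MSU pool and 845 in the control pool (1.63-fold lower). Ndufs1 had 422 in the MSU pool and 492 in the control pool, and Ndufs7 had 515 and 599 in the same order, log2 ratios of -0.22 each. A second probe set of Ndufs7 had 335 in the MSU pool and 724 in the control pool (-1.11), so the size for this gene depended on the set.

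The 28 measured accessory subunits of complex I, which surround the core, had a median of -0.65. Of these, 15 (53.6%) were at least 1.5-fold lower, against 14.4% of all measured genes. Those at least 2-fold lower belonged to both arms. Of the membrane arm, Ndufb10 had 206 in the MSU pool and 524 in the control pool, Ndufb9 had 640 against 1352 and Ndufb5 had 511 against 1051 (2.54-, 2.11- and 2.05-fold lower in the MSU pool). Ndufa8 and Ndufs5, small proteins with paired cysteine motifs that face the intermembrane space, had 484 and 185 in the MSU pool, against 1000 and 375 in the control pool (2.07- and 2.03-fold lower). Ndufa9, next to the ubiquinone site, had 418 in the MSU pool and 964 in the control pool (2.31-fold lower), and Ndufa3 had 447 against 899 (2.01-fold lower). Another 8 accessory subunits were between 1.5- and 2-fold lower. Ndufs4, whose loss causes a fatal encephalopathy in mice and humans, had 183 in the MSU pool and 342 in the control pool (1.87-fold lower). Ndufa4, counted here by its symbol although the protein was later assigned to complex IV, had 559 in the MSU pool and 931 in the control pool (1.67-fold lower). Ndufa6 had 284 in the MSU pool and 563 in the control pool, Ndufc1 had 391 against 750, and Ndufa7 had 550 against 938. Ndufa5 had 237 in the MSU pool and 400 in the control pool, Ndufa2 had 594 against 930, and Ndufb8 had 786 against 1228. The 9 remaining accessory subunits below 0, apart from Ndufa4l2, ran between Ndufa13 (734 in the MSU pool, 1095 in the control pool, log2 ratio -0.58) and Ndufv3 (1155 against 1198, -0.05).

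Complex I also held the 2 highest folds among the subunits, Ndufa12 and Ndufb1. Ndufa12 had 987 in the MSU pool and 700 in the control pool (log2 ratio 0.49), Ndufb1 had 138 against 105 (0.39) and Ndufa10 had 524 against 469 (0.16). These were 3 of the 6 subunits with a log2 ratio above 0. The others were Cox8c, Cox5a and Uqcrb. Scaling on spike-in controls left a ratio above 0 for Ndufa12 alone (0.04), and scaling each array on its median turned Uqcrb below 0 (-0.02). Ndufa12 had 4 probe sets that differed in direction, since a set with 630 in the MSU pool and 827 in the control pool gave a log2 ratio of -0.39.

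**Figure D2:**
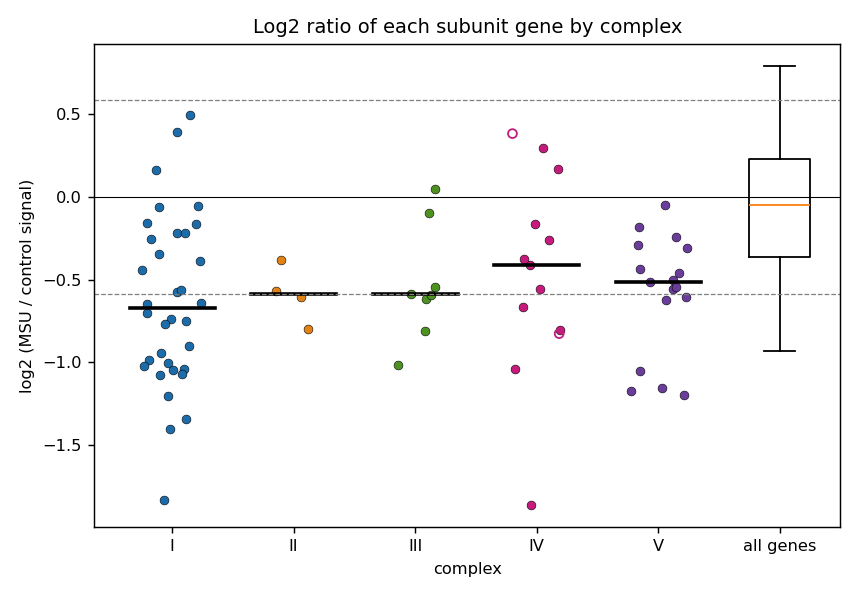
Log2 ratio of MSU over control signal for each measured subunit gene, by complex, with bounds as open points, the median as a bar and dashed lines at 1.5-fold; the box shows all genes with a fold (quartiles, whiskers at the 5th and 95th percentile). All 17 genes of complex V and all 4 of complex II lie below 0.

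Complex II, succinate dehydrogenase, is also an enzyme of the TCA cycle, and all 4 of its genes had a log2 ratio below 0 (median -0.59). Sdhd, a membrane anchor, had 549 in the MSU pool and 955 in the control pool (1.74-fold lower). Sdhb, the iron-sulfur subunit, had 1017 in the MSU pool and 1545 in the control pool (1.52-fold lower). The flavoprotein Sdha was 1.49-fold lower, with 701 in the MSU pool and 1041 in the control pool, and the other anchor, Sdhc, had the ratio nearest to 0 (678 against 885, log2 ratio -0.38).

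Complex III hands electrons from ubiquinol to cytochrome c. Of its 8 genes taken by the rule, 4 (50%) were at least 1.5-fold lower in the MSU pool, against 14.4% of all measured genes. The median was -0.59. Uqcr11, a small subunit, had 196 in the MSU pool and 397 in the control pool (2.03-fold lower). The core proteins Uqcrc1 and Uqcrc2 had 931 and 505 in the MSU pool, against 1633 and 775 in the control pool (1.75- and 1.53-fold lower). Uqcrq had 402 in the MSU pool and 606 in the control pool (1.51-fold lower). Uqcrh, the hinge protein that docks cytochrome c1, fell just short of this size, with 566 in the MSU pool and 849 in the control pool (log2 ratio -0.58). Uqcrfs1, the Rieske iron-sulfur protein, had 814 in the MSU pool and 1189 in the control pool (1.46-fold lower). Uqcr10 had a log2 ratio of -0.10 (560 in the MSU pool, 599 in the control pool), and Uqcrb had 4582 in the MSU pool and 4424 in the control pool, a log2 ratio of 0.05. The direction of Uqcrb depended on the probe set, since its other set had 496 in the MSU pool and 724 in the control pool (-0.55).

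Complex IV, cytochrome c oxidase, passes the electrons to oxygen, and 13 of its 16 genes were measured. Of these, 5 (38.5%) were at least 1.5-fold lower in the MSU pool, against 14.4% of all measured genes. The median of the 11 with a fold was -0.41. Cox4i1, the common form of the largest nuclear subunit, had 1308 in the MSU pool and 2283 in the control pool (1.75-fold lower). Cox5a, Cox6b1, Cox5b and Cox6c, also common subunits, differed by less than 1.5-fold between the pools. Cox5a had 3522 in the MSU pool and 3135 in the control pool (log2 ratio 0.17), Cox6b1 had 2215 against 2652 (-0.26), Cox5b had 1868 against 2486 (-0.41) and Cox6c had 1630 against 2113 (-0.37). The 4 probe sets of Cox5b with a fold ran between -1.01 and -0.33, and a set of Cox5a with 1183 in the MSU pool and 1566 in the control pool was at -0.40. The 2 probe sets of Cox7c lay below the floor in both pools, with at most 43.2 in the MSU pool and 37.6 in the control pool, so no ratio was given for it.

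The muscle-type forms of complex IV subunits had lower ratios than their ubiquitous partners in each of the 3 pairs. Cox8b had 78.3 in the MSU pool, just above the floor, and 285 in the control pool (log2 ratio -1.86, 3.64-fold lower), the lowest ratio of the 76 measured genes, whereas its partner Cox8a had 783 in the MSU pool and 1153 in the control pool (-0.56). The difference between the 2 ratios was -1.30 on the log2 scale. Cox6a2, a form of heart and skeletal muscle, had 312 in the MSU pool and 644 in the control pool (2.06-fold lower), and its partner Cox6a1 had 3284 against 3682 (1.12-fold lower), a difference of -0.88. Cox7a1 had 71.8 in the MSU pool, below the floor, and 131 in the control pool, at least 1.77-fold lower, against 1363 and 2161 for its partner Cox7a2 (1.58-fold lower), a difference of -0.16 or lower. The median difference of the pairs was -0.88 with Cox7a1 at its bound. Median and spike-in scaling multiply a whole array by 1 factor, which cancels in such a difference, so they could not change it. Under quantile normalization the median difference was -0.80. A second probe set of Cox8a had 627 in the MSU pool and 1231 in the control pool (-0.97), nearer to the ratio of Cox8b. Likewise, a second set of Cox6a1 had 764 in the MSU pool and 1226 in the control pool (-0.68), nearer to the ratio of Cox6a2. The size of the difference in these pairs thus depended on the set. The muscle-type genes are few. Without the 8 tissue-restricted forms, of which 6 were measured, 33 of 70 measured genes (47.1%) were at least 1.5-fold lower, against 14.4% of all measured genes. The median was -0.57. How much muscle RNA adds to the signals of the other subunits was not tested.

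**Figure D3:**
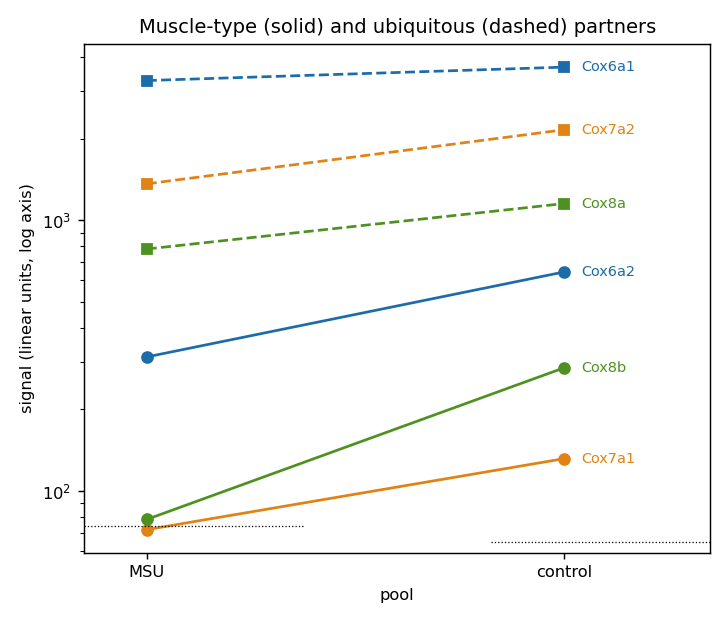
Signal (linear units, log axis) of muscle-type (solid lines, circles) and ubiquitous (dashed lines, squares) complex IV subunits in the MSU pool (left) and the control pool (right), partners in one colour, floors dotted. Cox8b descends furthest towards the MSU side, to 78.3 against 285 in the control pool.

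The other tissue-restricted forms had no common direction. Cox4i2, an oxygen-responsive form of lung, had 84.3 in the MSU pool and 56.2 in the control pool, at least 1.30-fold higher. Cox8c, which is expressed in testis, had 369 in the MSU pool and 300 in the control pool (log2 ratio 0.30). This value rests on 1 probe set, since a dimmer set of Cox8c had 34.3 in the MSU pool and 66.5 in the control pool and was given no ratio. Ndufa4l2, a gene induced by hypoxia, had 428 in the MSU pool and 510 in the control pool (1.19-fold lower). The testis forms Cox6b2 and Cox7b2 lay below the floor in both pools.

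The promoters of the Cox8 pair, and of 2 genes with at least 2-fold lower signals that encode proteins common to all tissues, are shown because they place the letters of known motifs side by side. Each line gives the 250 bases before the annotated start and the first 30 after it (RefSeq, GRCm38.p6), with motifs in capitals. These are TATAAA and the E-box CAGCTG in Cox8b (chr7:140900417-140900696, minus strand), the ETS core CCGGAAG and CCAAT or their reverse complements in Cox8a (chr19:7217587-7217866, minus strand) and Ndufs8 (chr19:3912745-3913024, minus strand), and the ETS core and the NRF1 core GCGCATGC or its reverse complement in Uqcr11 (chr10:80406792-80407071, minus strand).
Cox8b: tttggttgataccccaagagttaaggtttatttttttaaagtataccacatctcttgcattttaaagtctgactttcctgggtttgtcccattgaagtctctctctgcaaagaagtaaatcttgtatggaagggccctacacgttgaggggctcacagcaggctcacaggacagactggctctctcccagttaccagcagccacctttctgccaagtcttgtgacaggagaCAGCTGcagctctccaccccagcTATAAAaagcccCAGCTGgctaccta
Cox8a: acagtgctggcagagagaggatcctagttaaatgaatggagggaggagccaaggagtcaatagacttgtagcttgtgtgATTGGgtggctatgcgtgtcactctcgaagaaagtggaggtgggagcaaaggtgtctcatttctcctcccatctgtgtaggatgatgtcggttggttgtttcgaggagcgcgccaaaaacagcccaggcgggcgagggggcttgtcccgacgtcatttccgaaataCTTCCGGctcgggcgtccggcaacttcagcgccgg
Ndufs8: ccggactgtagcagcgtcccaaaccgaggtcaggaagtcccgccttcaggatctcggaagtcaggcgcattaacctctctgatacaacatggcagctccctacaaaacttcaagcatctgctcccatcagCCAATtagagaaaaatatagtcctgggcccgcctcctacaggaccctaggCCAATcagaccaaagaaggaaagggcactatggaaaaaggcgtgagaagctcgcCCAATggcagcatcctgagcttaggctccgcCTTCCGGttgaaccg
Uqcr11: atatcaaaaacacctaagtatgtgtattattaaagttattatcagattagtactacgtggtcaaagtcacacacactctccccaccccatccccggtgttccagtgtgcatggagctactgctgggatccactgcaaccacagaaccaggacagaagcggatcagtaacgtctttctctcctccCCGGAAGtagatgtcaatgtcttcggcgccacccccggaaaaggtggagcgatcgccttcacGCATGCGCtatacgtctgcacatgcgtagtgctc
ETS factors such as GABPA and the factor NRF1 are known regulators of respiratory genes, and E-boxes are bound by myogenic factors. Promoters of 65 of the 80 genes were found, 70 in all. Searched on both strands, with overlaps between motifs allowed, the ETS core was in 24.3% of them (17 genes), against 8.45% of all 32851 promoters and 15.7% of those of measured genes. The NRF1 core was in 11.4% (8 genes), against 2.58% of all and 4.75% of those of measured genes. CCAAT was in 41.4%, against 36.1% of all, TATAAA in 12.9%, against 13.1%, and CAGCTG in 8.57%, against 14.9%. Among promoters of measured genes these 3 were in 35.7%, 7.54% and 14%. Subunits with the ETS core had a median log2 ratio of -0.56 (17 genes with a fold) and those without it -0.62 (43 genes). The medians were -0.79 with the NRF1 core (8 genes) and -0.57 without it (52 genes), and -1.06 with CAGCTG (6 genes) and -0.57 without it (54 genes). With CCAAT the median was -0.55 (24 genes) and without it -0.74 (36 genes), and with TATAAA it was -0.54 (7 genes) and without it -0.58 (53 genes). The YY1 core AAGATGGC was in 5.71% of the subunit promoters, against 2.29% of all and 3.25% of those of measured genes, and the ERR half-site AAGGTCA in 8.57%, against 4.46% and 3.11%. The medians were -0.77 with the YY1 core (4 genes) and -0.57 without it (56 genes), and -0.34 with the ERR half-site (5 genes) and -0.60 without it (55 genes). These differences rest on few genes and were not tested. A match is a description of the letters and not a binding site.

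All 17 ATP synthase genes had a log2 ratio below 0 (median -0.52). Of these, 6 (35.3%) were at least 1.5-fold lower in the MSU pool, against 14.4% of all measured genes. The c subunit, whose ring turns in the membrane, is encoded by 3 genes that give the same mature protein. Atp5g1 had 214 in the MSU pool and 491 in the control pool (2.29-fold lower) and Atp5g2 had 626 against 1300 (2.08-fold lower), whereas Atp5g3 had 3009 against 4139 (1.38-fold lower). Atp5o, which ties the catalytic head to the peripheral stalk, had 473 in the MSU pool and 1067 in the control pool (2.26-fold lower). Atp5e, the smallest subunit of the head, had 195 in the MSU pool and 435 in the control pool (2.23-fold lower). The alpha and beta subunits of the head were closer to 1-fold than Atp5o and Atp5e. Atp5b, the beta subunit, had 3112 in the MSU pool and 3526 in the control pool (1.13-fold lower), and Atp5a1, the alpha subunit, had 2418 against 3277 (1.36-fold lower). Atp5j, of the stalk, had 951 in the MSU pool and 1448 in the control pool (1.52-fold lower), and Atp5j2, of the membrane part, had 1088 against 1677 (1.54-fold lower). Atp5k, another membrane subunit, had 1015 in the MSU pool and 1048 in the control pool, the ratio nearest to 0 in the complex. The other 7 genes had log2 ratios between -0.56 and -0.24.

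Among all 129 subunit probe sets with a fold, 119 had a log2 ratio below 0, against 8268 of 16347 probe sets of all genes. Of the 37 genes with at least 2 such probe sets, 31 had them all below 0, while in 13 the sets differed by over 1.5-fold. The 6 probe sets of Ndufs8 ran between -1.83 and -0.40, all below 0. For Ndufc1, a set with 391 in the MSU pool and 750 in the control pool stood beside a set with 424 against 374, so its direction depended on the set. Atp5h had a set at -1.26 (394 in the MSU pool, 944 in the control pool) besides the one used, at -0.29 (1431 against 1752). Atp5a1 and Uqcrq each had a set above 0 (0.52 and 0.28) besides the one used. The sets of Ndufa7 ran between -1.11 and -0.04, those of Ndufc2 between -0.93 and -0.16, those of Atp5j2 between -0.76 and -0.03 and those of Atp5k between -0.70 and -0.05, all below 0. The pooled SD between probe sets of one gene was 0.37 for the subunits and 0.33 for all genes, a spread between probes of the same 2 pools that holds no variation between mice.

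**Figure D4:**
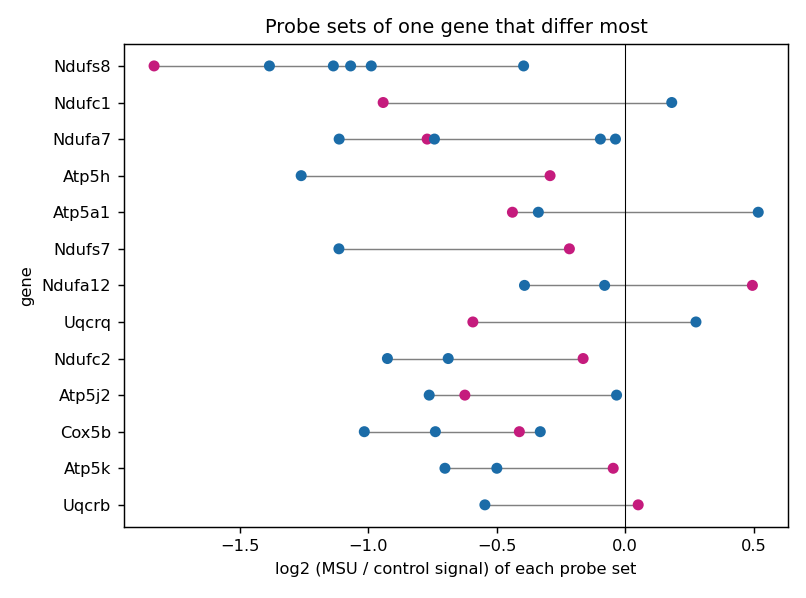
Log2 ratio of MSU over control signal of each probe set with a fold, for the 13 subunit genes whose sets differ by over 1.5-fold, with the set that stands for the gene in magenta and others in blue. For 5 genes the sets lie on both sides of 0, among them Ndufc1 and Ndufa12.

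Genes that work beside the complexes, and subunits that the symbol rule left out, were given by lists. Of 8 measured electron carriers and ATP synthase regulators, 5 (62.5%) were at least 1.5-fold lower in the MSU pool (median -0.63). This compares with 14.4% of all measured genes. The list includes Cyc1, the cytochrome c1 subunit of complex III (1.52-fold lower), and Ndufab1, a subunit of complex I (1.22-fold lower). The symbol rule did not take these genes, so they are not counted in their complexes. Etfa and Etfb, which bring electrons from fatty acid oxidation, had 464 and 649 in the MSU pool, against 919 and 1313 in the control pool (log2 ratios -0.99 and -1.02). Cycs, cytochrome c itself, had 1727 in the MSU pool and 2068 in the control pool (-0.26). Of the 16 measured complex I assembly factors, 5 (31.2%) were at least 1.5-fold lower and 1 higher (median -0.53). Of the 26 measured for the other complexes, 8 (30.8%) were lower and 0 higher by this size (median -0.31). Coa3, which aids the making of cytochrome c oxidase, had 192 in the MSU pool and 643 in the control pool (-1.74). ND5 of complex I, the only mitochondrially encoded subunit found among the genes, had 3206 in the MSU pool and 4115 in the control pool (-0.36).

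Regulators of mitochondrial biogenesis lay close to all genes. Of 14 measured, 2 (14.3%) were at least 1.5-fold lower in the MSU pool, against 14.4% of all measured genes. None was that much higher, and the median log2 ratio was -0.04. Of the 13 with a fold, 7 had a log2 ratio below 0. Tfam, which packs and transcribes mitochondrial DNA, had 177 in the MSU pool and 272 in the control pool (-0.62), and the coactivator Ppargc1b had 23.2 in the MSU pool, below the floor, and 127 in the control pool, at least 1.71-fold lower. Ppargc1a, the coactivator of biogenesis in muscle and brown fat, lay below the floor in both pools. Nrf1 and Gabpa had log2 ratios of 0.18 and 0.10. The highest ratio of the list was that of Esrra, with 216 in the MSU pool and 149 in the control pool (0.54), followed by Yy1 (0.51).

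Fuel pathways differed in direction. Of 17 TCA cycle genes, 6 were at least 1.5-fold lower in the MSU pool and none higher (median -0.43). Pcx, which feeds the cycle with oxaloacetate, had 151 in the MSU pool and 513 in the control pool (log2 ratio -1.76), and Mdh2 had 4303 against 3684 (0.22). Of 15 measured glycolysis genes, 9 (60%) were at least 1.5-fold higher, against 8.65% of all measured genes, and 1 was lower (median 0.60). The glucose transporter Slc2a1 had 2357 in the MSU pool and 489 in the control pool (2.27), and Pfkfb3, which makes an activator of phosphofructokinase, had 1112 against 333 (1.74). Pfkm, the muscle phosphofructokinase, was the 1 that was lower (786 in the MSU pool, 1380 in the control pool). Among 48 cytosolic ribosomal protein genes, 7 (14.6%) were at least 1.5-fold lower (median -0.24), against 14.4% of all measured genes.

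**Figure D5:**
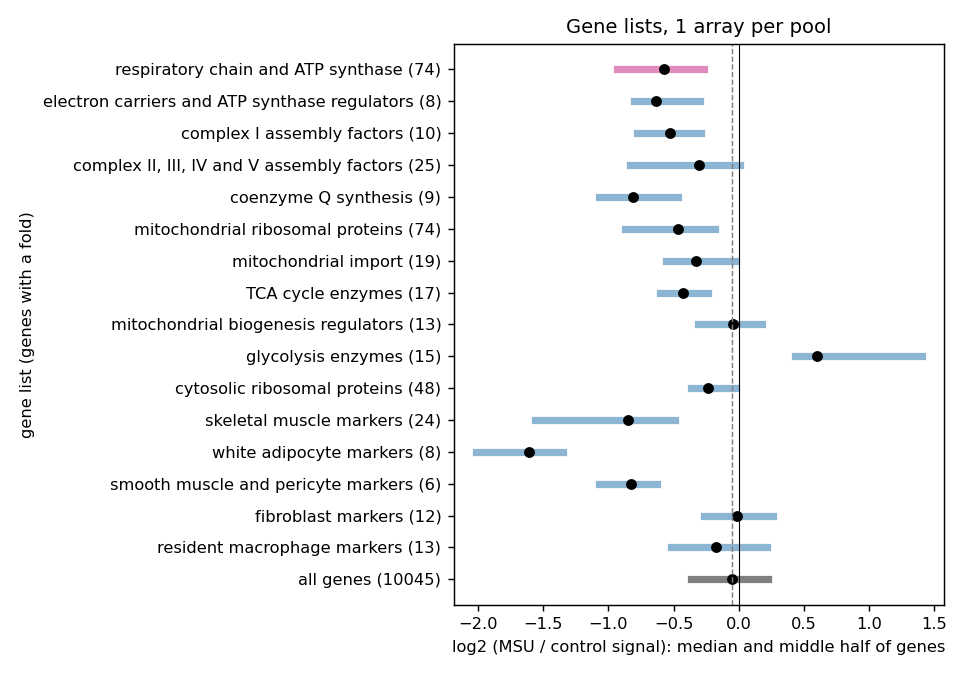
Median log2 ratio of MSU over control signal (point) and quartiles (bar) of gene lists, with the number of genes with a fold in parentheses, the subunits at the top and all genes at the bottom; the dashed line is the median of all genes. The subunits (-0.57) lie left of all genes (-0.05), glycolysis genes to the right (0.60).

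Markers of muscle and fat were also lower in the MSU pool. The membrane borders on paraspinal muscle, the nuchal fat pad and the overlying soft tissue, from which it has to be dissected. In MSU-injected pouches, the paper found resistin and dystrophin mRNA far higher in this overlying tissue than in membranes. The paper saw no fat cells or skeletal muscle in dissected membranes by histology. It did find that resistin (fat) and dystrophin (muscle) mRNA varied between single control membranes, and pooled RNA for this reason. On the arrays, resistin (Retn) had 280 in the MSU pool and 932 in the control pool, and dystrophin (Dmd) had 106 against 148. Of 28 skeletal muscle markers, all measured, 19 (67.9%) were at least 1.5-fold lower in the MSU pool, against 14.4% of all measured genes. The median of these markers was -0.85, and their signals summed to 37380 in the MSU pool and 62411 in the control pool. The list was uneven. Tnni2, a fast-fibre troponin, had 495 in the MSU pool and 2539 in the control pool, while Acta1, the muscle actin, had 8398 against 7311. Myh7, Tnnc1, Tnni1 and Tnnt1, which mark slow fibres, were below the floor in the MSU pool. Of 10 measured white adipocyte markers, 9 were at least 1.5-fold lower (summed over 12 genes, 4593 in the MSU pool and 16613 in the control pool). The brown adipocyte markers Ucp1 and Cidea lay below the floor in both pools, and of the 11 genes of that list 4 were measured. Dio2 had 252 in the MSU pool and 78.2 in the control pool (3.23-fold higher), Fabp3 had 62.4 against 355 (at least 4.79-fold lower), Zic1 was 1.33-fold lower and Plin5 at least 1.27-fold lower. Of that list, 1 gene was thus at least 1.5-fold lower and 1 higher, and it summed to 703 in the MSU pool and 989 in the control pool. Of 13 measured neutrophil markers, 11 (84.6%) were at least 1.5-fold higher, against 8.65% of all measured genes. The neutrophil list summed to 25789 in the MSU pool and 3154 in the control pool. Of 8 measured smooth muscle and pericyte markers, 7 were at least 1.5-fold lower, and fibroblast markers had a median of -0.02. The part of these cell types in the lower subunit signals was not tested.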

How the data were processed

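RNA of 3 mice per group was hybridized to 1 Affymetrix Mo430_2 array. The table deposited by the authors holds an intensity on a linear scale for each probe set. It came from Affymetrix software (MAS5 by the submitters' processing notes; version not given in the sources used here) and was scaled to a common trimmed mean, without the highest and lowest 2%. They were used as deposited. Of all 45101 probe sets, controls included, the platform annotation gave 1 gene for 34958, several for 932, and did not list 9211. The 64 controls were left out of the gene values. Symbols were updated with RefSeq (GRCm38.p6). Where a gene had several probe sets, the one of highest mean log2 signal was taken. Ratios were MSU over control, at sizes of 1.5- and 2-fold. The number of arrays limits the precision. The gene step was tested on simulated data. The members and lists were chosen with earlier results of these data known. Named were members past 1.5-fold, the highest and lowest ratio of each complex, tissue-restricted forms and partners, and extremes of the lists; others were named after their values were seen. Alternatives were median, quantile and spike-in scaling, other floors, a pseudocount, the median over probe sets, and no _x_at or _s_at sets. Python 3.11.15, numpy 2.4.6, pandas 2.3.3, scipy 1.17.1 and matplotlib 3.10.9 were used.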

Additional observations from a re-analysis of the deposited data

How the results depend on the processing

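No paired analysis was possible because each group has 1 array, and the depth behind a signal cannot be known from an array. A value was taken to move when it changed by over 0.33 on the log2 scale, the pooled SD between probe sets of one gene over all genes, or, for a count, by over 1.5 times. Of 92 recomputed values, 79 stayed within this and 13 moved. No median or difference turned direction, and a count has no direction to turn. The difference between muscle-type and ubiquitous forms could not move under median or spike-in scaling, and is counted among those that stayed. Both scalings also shift all medians by 1 fixed amount. This amount was below 0.33 for median scaling and 0.46 for spike-in scaling. Whether the medians moved was thus set by the scaling factor, and for them the tally does not measure stability. Scaling on the 18 spike-in controls, all brighter on the MSU array (median 1.37-fold), shifted every ratio: 65 subunit genes were at least 1.5-fold lower and 44 at least 2-fold lower, and the medians were -1.03 for all subunits, -1.13 for complex I, -1.04 for II, -1.05 for III, -0.87 for IV, -0.97 for V and -1.50 for the muscle-type forms, while the median of all genes was -0.51 and 43.5% of them were at least 1.5-fold lower. With each floor added as a pseudocount, 6 subunit genes were at least 2-fold lower. Without a floor, 1 was at least 1.5-fold higher (Cox7b2, with 3.36 in the MSU pool and 1.52 in the control pool), as was 1 without _x_at and _s_at sets (Ndufa12, at least 1.66-fold). With the median over probe sets, the muscle-type median was -1.45, over 2 genes, against -1.04 with Cox7a1 at its bound. Leaving out tissue-restricted forms was chosen after seeing the data.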

Other observations

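Other mitochondrial gene groups were also lower in the MSU pool. Of 76 mitochondrial ribosomal protein genes, which make the mitochondrially encoded subunits, 31 (40.8%) were at least 1.5-fold lower, 0 were higher by this size, and they had a median log2 ratio of -0.47. Mrps18a had 149 in the MSU pool and 545 in the control pool (-1.87), and Mrpl52 had the highest ratio, with 617 in the MSU pool and 454 in the control pool (0.44). Of 11 measured genes of coenzyme Q synthesis, 5 were at least 1.5-fold lower (median -0.81), among them Coq7, with 94.8 in the MSU pool and 266 in the control pool (-1.49). Of 19 measured import genes, 4 (21.1%) were at least 1.5-fold lower, against 14.4% of all measured genes. Their median was -0.33, and Timm17a was lowest (206 in the MSU pool, 460 in the control pool).

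Carriers of the inner and outer membrane had a median of -0.28. Of 9 measured, 2 (22.2%) were at least 1.5-fold lower, against 14.4% of all measured genes. Both are muscle-rich forms: the creatine kinase Ckmt2 had 362 in the MSU pool and 914 in the control pool (-1.33), and the ADP/ATP carrier Slc25a4 had 2040 against 3796 (-0.90). The carrier form Slc25a5 had 1735 in the MSU pool and 1946 in the control pool (-0.17). Probe sets that match several genes were used for no gene. Among them, 2 sets for Ndufa11 and Ndufa11b had 239 and 84.1 in the MSU pool, against 485 and 97.2 in the control pool (log2 ratios -1.02 and -0.21). The 2 sets for the Ndufb4 family had 573 and 249 in the MSU pool, against 564 and 356 in the control pool (0.02 and -0.52). Atpif1, the ATP synthase inhibitor, had 389 in the MSU pool and 649 in the control pool (-0.74). A dimmer set of Atpif1 had 112 in the MSU pool and 103 in the control pool (0.13), so its direction depended on the set.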
